A study of Mus musculus with 9 samples.

Results

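Ighm, Pou2af1, Pou2f2, Jchain, Bank1 and Aff3 are genes best known from B cells, the lymphocytes that make antibody. They were read in natural killer (NK) cells of C57BL/6 mouse spleen, 6 of the 27179 genes counted in each library. Their rows were found by Entrez identifier and symbol. The 6 were chosen by their role in immunoglobulin biology and by their expression differences between NK cells lacking Id2 and wild-type NK cells, so for them that comparison is a description: their calls by the fit over all genes are counted once, beside the share of all genes called, and support nothing. RNA was sequenced from 3 libraries of Id2-null NK cells and 3 libraries of wild-type (WT) NK cells, each grown from spleen for 7 days in the cytokine interleukin-15 (IL-15). A further 3 wild-type libraries, 1 each from cells labelled Immature, M1 and M2, came from NK cells sorted from spleen with no culture. The sources used here do not give how Id2 was deleted, the age and number of mice, or the markers used for sorting. Nothing in the labels ties a replicate to its own mouse or culture. The p-values below therefore measure how these libraries vary, and that spread may be technical.

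An antibody heavy chain gene is built by joining variable (V), diversity (D) and joining (J) segments in front of a constant region, and Ighm is the constant region of IgM, the first class of antibody that a B cell makes. The POU domain protein OCT2, encoded by Pou2f2, binds the octamer motif found in immunoglobulin promoters, and OCA-B, encoded by Pou2af1, is its B cell coactivator. The J chain, encoded by Jchain, links IgM or IgA molecules into polymers in antibody-secreting cells. BANK1 is a scaffold protein of B cell receptor signalling, and AFF3 is a nuclear protein of the AF4/FMR2 family that was described in lymphoid cells. ID2 binds the E proteins, transcription factors that drive B cell genes, and keeps them off DNA.

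Total counts ran from 4128414 to 4831831 per library, and 0 counts allowed a level of up to 3 counts, by counting error alone. Id2 itself had 56, 113 and 44 counts in the Id2-null libraries, against 1958, 1925 and 1945 counts in the WT libraries. All 12 genes of the NK cell list had counts in each of the 9 libraries, and edgeR called 0 of them between the cultures (3 at an unadjusted p under 0.05, and 2 lower by DESeq2, Gzma and Tbx21, and 2 with the replicate number as a block, Prf1 and Tbx21). Their summed level, led by the granule protein genes Gzma and Nkg7, was 4349 to 4910 RPKM (CPM for every kilobase of gene length) in Id2-null libraries and 7535 to 10440 RPKM in WT libraries. Ncr1, the NK receptor NKp46, stood at 559, 541 and 686 CPM (counts scaled to a common library size) in Id2-null libraries, against 486, 375 and 561 CPM in WT libraries. Gzma, Prf1 and Tbx21 went the other way. Gzma averaged 465 ± 292 CPM in Id2-null cells and 3704 ± 1069 CPM in WT cells. Prf1 averaged 501 ± 197 CPM and 1451 ± 754 CPM in the same order, and Tbx21 89.3 ± 8.55 CPM and 136 ± 18.7 CPM. Limma voom called Gzma lower, and all 3 were called lower without replicate 3 of both genotypes. Replicate 3 of each genotype stood apart from replicates 1 and 2, and without both of these libraries 1065 genes were called between the cultures, against 377 with them. The genotypes also differed in the sex of the cells, with 3109 to 4286 counts of the X-inactivation RNA Xist in Id2-null libraries and 1 to 6 in WT libraries. Genotype and sex therefore cannot be told apart in any difference between the cultures. The Immature, M1 and M2 libraries held both Xist (361 to 499 counts) and the Y-linked gene Ddx3y (148 to 192 counts).

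Ighm (Entrez 16019, annotated as a C_region, chromosome 12, positions 113418826 to 113422730 in GRCm38) was the most abundant of the 6 genes in every library on a length-scaled scale. In the Id2-null libraries its level was 949.6, 1046 and 690.3 CPM, against 123, 167 and 117 CPM in the WT libraries. Every Id2-null library lay above every WT library, and the lowest Id2-null value was 4.13 times the highest WT value. The mean was 895 ± 184 CPM in Id2-null cells and 136 ± 27.4 CPM in WT cells (SD, n = 3 each), a fitted log2 fold change of 2.73 (SE 0.21). Scaled to the 1491 bases over which it was counted, Ighm averaged 601 ± 123.5 RPKM in Id2-null cells and 91.0 ± 18.4 RPKM in WT cells. Among the 11022 genes tested in the cultures it ranked 97, 83 and 101 by RPKM in the Id2-null libraries, against 957, 676 and 983 in the WT libraries. Ighm was thus far from silent in WT NK cells. In the sorted libraries it stood at 499 CPM in Immature (95% interval 477 to 521), 369 CPM in M1 (351 to 388) and 511 CPM in M2 cells (489 to 534). These are exact Poisson intervals for single libraries. The order of levels was Id2-null cultures, M2, Immature, M1 and WT cultures, and M2 and Immature did not differ beyond counting error (ratio 1.03, 95% interval 0.963 to 1.09).

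**Figure D1:**
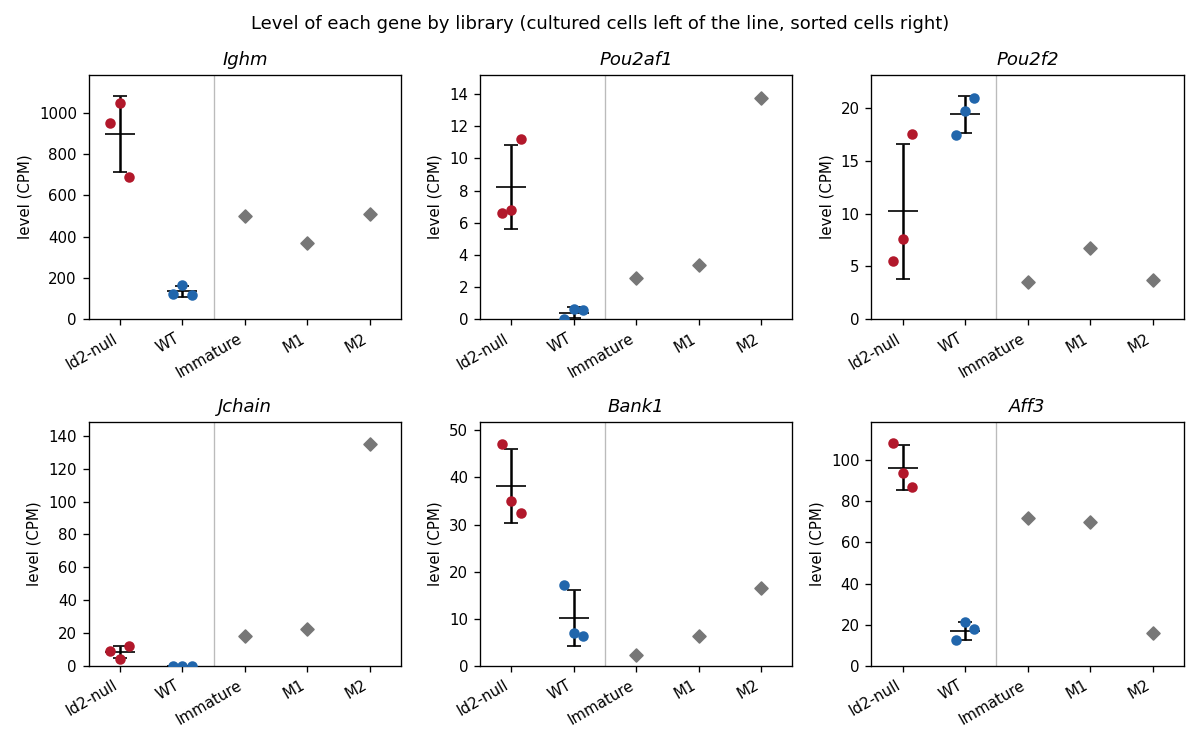
Level in CPM (linear axes from 0) of the 6 genes in each library. Circles are single libraries of the Id2-null (red) and WT (blue) cultures with the mean and SD (n = 3), and grey diamonds are the single sorted libraries. In 5 panels every Id2-null point lies above every WT point, and in the Pou2f2 panel the groups overlap.

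Pou2af1 (Entrez 18985, chromosome 9, positions 51213690 to 51240079) was close to undetected in WT cultures and present in Id2-null cultures. Its counts were 30, 32 and 55 in the Id2-null libraries, against 0, 3 and 3 in the WT libraries. The levels were 6.60, 6.77 and 11.2 CPM in Id2-null cells, against 0, 0.624 and 0.578 CPM in WT cells. The groups did not overlap. The ratio of the summed counts, scaled to library size, was 20.4 (exact binomial 95% interval 9.08 to 56.6, counting error only). Pou2af1 was at 2.55 CPM in the Immature library, 3.38 CPM in the M1 library and 13.8 CPM in the M2 library, so the Id2-null cultures lay between the M1 and M2 libraries.

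Jchain (Entrez 16069, chromosome 5, positions 88519809 to 88527897) was likewise at the floor in WT cultures, with 41, 21 and 59 counts in Id2-null libraries, against 1, 0 and 0 in WT libraries. Its level was 9.02, 4.44 and 12.0 CPM in Id2-null cells, and in WT cells at most 0.208 CPM. The ratio of summed counts was 126, with a counting interval from 22.3 to 5030, since the WT sum was 1 count. In the sorted libraries Jchain was higher than in either culture, at 18.1 CPM in Immature (95% interval 14.1 to 22.8), 22.7 CPM in M1 (18.3 to 27.8) and 135 CPM in M2 (124 to 147).

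The promoters of Pou2af1, Jchain, Bank1 and Aff3 are shown because these genes, like Ighm, were higher in every Id2-null library than in any WT library, and E proteins, the partners of ID2, bind the E-box CANNTG. They span 250 bases before to 50 after 1 start site per gene and come from RefSeq (GRCm38.p6), which held 5 of the 6 genes and none for Ighm. The windows of Aff3 and Pou2f2 (chr7:25132411-25132710, minus strand) lie wholly inside their genes, which end at 38630178 and 25180797. Their counts of matches are therefore for an internal start site. Capitals mark E-boxes.
Pou2af1, chr9:51213440-51213739, plus strand: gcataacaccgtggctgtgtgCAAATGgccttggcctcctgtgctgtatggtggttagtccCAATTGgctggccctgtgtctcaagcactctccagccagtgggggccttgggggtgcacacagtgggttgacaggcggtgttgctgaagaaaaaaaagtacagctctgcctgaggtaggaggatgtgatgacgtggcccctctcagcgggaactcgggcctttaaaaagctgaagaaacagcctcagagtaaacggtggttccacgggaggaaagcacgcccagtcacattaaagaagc
Jchain, chr5:88527848-88528147, minus strand: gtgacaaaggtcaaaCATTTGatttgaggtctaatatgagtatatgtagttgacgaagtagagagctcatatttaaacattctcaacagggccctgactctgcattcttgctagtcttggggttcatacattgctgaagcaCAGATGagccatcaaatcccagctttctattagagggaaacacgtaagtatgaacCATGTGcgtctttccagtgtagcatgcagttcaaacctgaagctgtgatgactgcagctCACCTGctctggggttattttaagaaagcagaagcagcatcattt
Bank1, chr3:136326017-136326316, minus strand: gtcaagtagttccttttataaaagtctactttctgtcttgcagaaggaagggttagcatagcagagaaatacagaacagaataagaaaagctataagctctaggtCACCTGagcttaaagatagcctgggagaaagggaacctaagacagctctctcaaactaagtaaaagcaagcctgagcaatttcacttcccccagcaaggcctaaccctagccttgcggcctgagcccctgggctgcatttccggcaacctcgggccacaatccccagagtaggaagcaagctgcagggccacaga
Aff3, chr1:38627195-38627494, minus strand: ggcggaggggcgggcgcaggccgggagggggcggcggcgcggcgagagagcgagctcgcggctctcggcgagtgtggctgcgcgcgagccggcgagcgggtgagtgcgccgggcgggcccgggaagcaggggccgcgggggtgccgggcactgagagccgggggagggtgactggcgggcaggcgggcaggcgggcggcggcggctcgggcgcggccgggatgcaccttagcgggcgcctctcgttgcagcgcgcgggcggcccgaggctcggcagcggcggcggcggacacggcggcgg
There were 2 E-boxes in the Pou2af1 window, 4 in that of Jchain, 1 in that of Bank1, 1 in that of Pou2f2 and 0 in that of Aff3. Of 32851 RefSeq promoter windows of this length, 72.3% held at least 1, with a mean of 1.39. The form CACCTG, read on both strands, stood in the Jchain and Bank1 windows and in 20.2% of all windows, and CAGCTG stood in none of the 5 and in 16.3% of all. The octamer ATGCAAAT, read on both strands, was in none of the 5 and in 1.74% of all windows. Its last 7 letters, TGCAAAT, occurred in the Pou2af1 window, 231 bases before the start site and overlapping an E-box there, and in 4.02% of all windows. These matches describe letters and not binding.

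Bank1 (Entrez 242248, chromosome 3, positions 136053363 to 136326141) was at 47.1, 34.9 and 32.4 CPM in Id2-null libraries, against 17.1, 7.07 and 6.35 CPM in WT libraries. The groups did not overlap; WT replicate 1 was the highest of the WT libraries. The means were 38.1 ± 7.86 CPM in Id2-null cells and 10.2 ± 6.00 CPM in WT cells (SD, n = 3 each), with a fitted log2 fold change of 1.91 (SE 0.38). Without WT replicate 1 that fold change was 2.50. In sorted cells Bank1 was lower than in either culture in the Immature library, at 2.29 CPM, and stood at 6.27 CPM in M1 and 16.5 CPM in M2.

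Aff3 (Entrez 16764, chromosome 1, positions 38175393 to 38630178) was at 108, 93.7 and 86.9 CPM in Id2-null libraries, against 12.5, 21.2 and 17.7 CPM in WT libraries. The lowest Id2-null value was 4.09 times the highest WT value. The means were 96.2 ± 10.8 CPM in Id2-null cells and 17.1 ± 4.39 CPM in WT cells (SD, n = 3 each), a fitted log2 fold change of 2.49 (SE 0.20). Aff3 had the opposite order to Bank1, Jchain and Pou2af1 in the sorted libraries, Immature cells having 71.8 CPM, M1 cells 70.0 CPM and M2 cells 15.8 CPM. The Immature and M1 libraries thus stood nearer to the Id2-null cultures, and M2 nearer to the WT cultures. The related genes Aff1 and Aff4, which encode subunits of transcription elongation complexes, did not pass the test between the cultures. Aff1 averaged 67.3 ± 10.5 CPM in Id2-null cells and 71.8 ± 1.73 CPM in WT cells (adjusted p = 0.845, edgeR). Aff4 averaged 60.2 ± 3.22 CPM in Id2-null cells and 68.3 ± 4.01 CPM in WT cells (adjusted p = 0.56, edgeR), and Aff2 had no counts in any library.

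Pou2f2 (Entrez 18987, chromosome 7, positions 25087350 to 25180797) did not follow the other 5. Its level was 5.50, 7.61 and 17.5 CPM in Id2-null libraries, against 17.5, 19.8 and 21.0 CPM in WT libraries. Id2-null replicates 1 and 2 lay below every WT library, and replicate 3 lay level with the lowest WT library. In each of the 3 same-numbered pairs the Id2-null library was the lower one. The fitted log2 fold change was -0.91 (SE 0.39), and -1.56 without Id2-null replicate 3. Immature cells had 3.57 CPM of Pou2f2, M1 cells 6.76 CPM and M2 cells 3.76 CPM, with overlapping counting intervals. The mean level of OCT2 RNA was thus not higher in the Id2-null cultures, the ones in which its coactivator was detected. D930028M14Rik, a noncoding gene with its own row in the files, overlaps Pou2f2, and the sources used here do not state whether strand was used in counting. Pou2f1, which encodes the widely expressed octamer protein OCT1, averaged 33.8 ± 8.09 CPM in Id2-null cells and 37.7 ± 4.03 CPM in WT cells (SD, n = 3 each, adjusted p = 0.803, edgeR).

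All 6 genes were expressed highly enough to be tested in the cultures, and 5 were called higher and 0 lower at an adjusted p under 0.05 (edgeR quasi-likelihood test). Of all 11022 genes tested, 3.42% were called, 1.91% higher and 1.52% lower. The same 5 had every Id2-null library above every WT library, as did 9.92% of all genes tested. The 6 were proposed from this contrast, so these counts describe the choice and are no evidence on the group. Without Id2-null replicate 3 the count was 6, Pou2f2 being called lower. Leaving out any 1 of Id2-null replicates 1 and 2 and WT replicates 2 and 3 gave 4, Bank1 being lost. A fit blocked on the replicate number called 835 genes, against 377 without the block, and the same 5 of the 6 were among them.

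The question that Ighm and Pou2af1 raise is whether B cells among the NK cells could have carried their RNA into the libraries, which bulk RNA answers only through other B cell genes. In bulk samples, fewer cells of a type and less RNA per cell cannot be told apart. The RNA of mature B cells holds, besides Ighm, the signalling chains Cd79a and Cd79b, the surface protein Ms4a1, the regulators Pax5 and Ebf1 and a light chain, in mice mostly Igkc. In the Id2-null libraries Cd79a had 2, 2 and 1 counts, against 2, 3 and 2 counts in WT libraries. Ms4a1 and Pax5 had 0 counts in all 6 cultures. Igkc had 0, 2 and 4 counts in Id2-null libraries, against 6, 2 and 0 counts in WT libraries. Cd79b had 6, 3 and 1 counts in Id2-null libraries, against 2, 0 and 0 counts in WT libraries, and Ebf1 had 1, 2 and 2 counts, against 0 in each WT library. The defining B cell genes were thus at or near 0 in the cultures whatever the genotype, beside 3384 to 4949 counts of Ighm in the Id2-null libraries.

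Over the whole list of 21 B cell markers, 7 to 9 had any count in an Id2-null library, against 7 to 11 in a WT library. Their summed level was 48.5 to 61.1 RPKM in Id2-null libraries and 46.7 to 55.9 RPKM in WT libraries, with means of 54.2 ± 6.33 RPKM in Id2-null cells and 52.4 ± 4.97 RPKM in WT cells. These did not differ beyond the spread between libraries (two-sided exact permutation test, p = 0.8, n = 3 each, where 0.1 is the smallest p this design allows). Most of that sum was Cd72, a lectin that NK cells also express here, at 67.2 ± 11.2 CPM in Id2-null cells and 68.7 ± 8.28 CPM in WT cells (adjusted p = 0.972, edgeR). Without Cd72 the sum was 9.51 ± 2.01 RPKM in Id2-null cells and 6.70 ± 2.64 RPKM in WT cells (n = 3 each, exact permutation p = 0.2). Without Cd72 and Ighd it was 4.30 ± 0.598 RPKM in Id2-null cells and 5.39 ± 3.50 RPKM in WT cells (n = 3 each, exact permutation p = 0.7). Of the 21 markers 2 were tested, Cd72 and Ighd, and edgeR called 0. Ighd was at an unadjusted p under 0.05, and DESeq2 called it. The median log2 fold change of these 2 was 0.97, beside 0.01 over all genes tested. Cxcr5, a receptor of B cells read below with the octamer targets, is not among the 21. It averaged 44.0 ± 12.2 RPKM in Id2-null cells and 0.123 ± 0.213 RPKM in WT cells. The 21 were chosen with earlier results of these data known, and the sum and the calls depend on that choice.

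Ighd, the constant region of IgD, lies next to Ighm on chromosome 12 (positions 113407535 to 113416324), and B cells splice both from 1 long transcript. It had 18, 21 and 36 counts in Id2-null libraries, against 3, 5 and 12 counts in WT libraries. The groups did not overlap, with 5.25 ± 1.83 CPM in Id2-null cells and 1.33 ± 0.878 CPM in WT cells (log2 fold change 1.96, SE 0.50, adjusted p = 0.0849, edgeR). With the replicate number as a block it was called (adjusted p = 0.0142). Per length, Ighm exceeded Ighd by 162, 159 and 63.5 times in the Id2-null libraries, against 133, 109 and 34.2 times in the WT libraries. Replicate 3 had the lowest ratio in both genotypes. In the sorted libraries the ratio was 60.2 in Immature, 45.0 in M1 and 51.1 in M2.

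**Figure D2:**
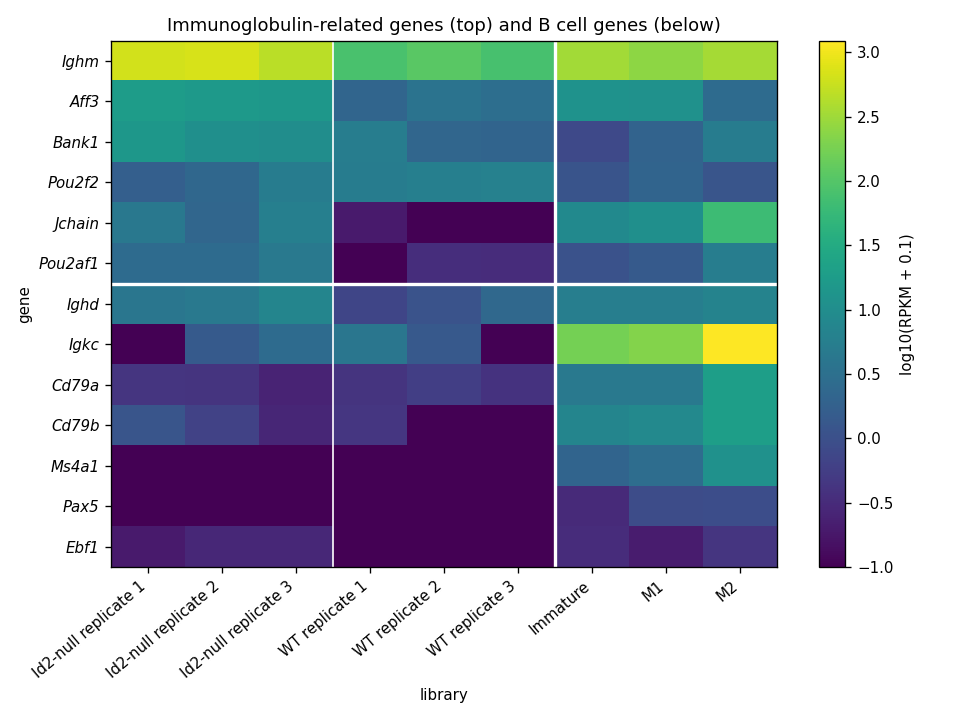
Length-scaled level of the 6 genes (above the horizontal line) and of B cell genes (below it) in the 9 libraries, as log10 of RPKM plus 0.1. In the 6 cultures the rows from Cd79a down are dark in both genotypes while Ighm is bright. In the sorted libraries the rows of Igkc, Cd79a, Cd79b, Ms4a1 and Pax5 are brighter than in any culture, with Igkc the brightest in M2. For Ighd and Ebf1 the sorted and Id2-null libraries overlap.

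The sorted libraries gave a scale for B cell RNA, since each of the 21 B cell markers had counts in each of them. Cd79a had 23, 24 and 104 counts in the Immature, M1 and M2 libraries, and Ms4a1 had 16, 24 and 97. In the same order Igkc had 212, 280 and 1571 counts. The M2 level was 4.45 times the Immature level for Cd79a (95% counting interval 2.81 to 7.32), 5.96 times for Ms4a1 (3.49 to 10.8) and 7.29 times for Igkc (6.31 to 8.45). There was 1 library of each population, so these ratios have no replicate check. Pou2af1 was 5.41-fold higher in M2 than in Immature cells (2.73 to 11.9), Jchain 7.45-fold higher (5.81 to 9.69) and Bank1 7.21-fold higher (3.58 to 16.5). Of the 6 genes, 3 were at least 2-fold higher in M2 and 1, Aff3, at least 2-fold lower, against 8.67% and 8.54% of 12326 genes. Over the 21 B cell markers the M2 level was at least 2 times the Immature level for 15, between 1 and 2 times for 4 and lower for 2, with a median ratio of 3.58. Ighm, at 1.03, lay at the low end of that range, beside Ighd at 1.21 (0.662 to 2.22) and Cd72 at 0.901 (0.793 to 1.02). Cd22, a B cell surface lectin, was lower in M2, at a ratio of 0.304 (0.213 to 0.425). Myeloid markers moved in the same way, their summed level being 472 RPKM in Immature, 556 RPKM in M1 and 1461 RPKM in M2, and their part in these values was not tested.

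The M2 library was used to set Ighm and Pou2af1 against what B cell RNA would predict. It held 19.6 counts of Ighm for each count of Cd79a, which counts every Ighm read of that library whatever cells it came from. At that ratio the Cd79a counts of the Id2-null libraries correspond to 39.2, 39.2 and 19.6 counts of Ighm, and to at most 142, 142 and 109 at the upper end of the exact Poisson 95% interval of Cd79a. The observed 4314, 4949 and 3384 counts were 30.4, 34.9 and 31.0 times those upper values. In the WT libraries the observed 589, 803 and 608 counts were 4.16, 4.67 and 4.29 times theirs. In the Immature and M1 libraries they were 2.89 and 2.18 times theirs. With Cd79a, Ms4a1 or Igkc as the scale, Ighm in the Id2-null libraries was 30.4 to 1107 times the upper value, and in the WT libraries 4.16 to 156 times. A marker with 0 counts was taken at 3 counts.

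For Pou2af1 the same arithmetic gave a different picture by library. The M2 library held 0.529 counts of Pou2af1 for each count of Cd79a, which gives at most 3.82, 3.82 and 2.95 counts in the Id2-null libraries, where 30, 32 and 55 were observed. In the WT libraries, with 0, 3 and 3 counts of Pou2af1, none exceeded its upper value from Cd79a of 3.82, 4.64 and 3.82. On the Ms4a1 scale WT replicates 2 and 3 each stood at 1.76 times their upper value, and on the Igkc scale at 11.9 and 28.6 times. The M2 ratio comes from 1 library, and the upper values carry the counting error of the marker alone. In the Immature and M1 libraries the 10 and 14 counts of Pou2af1 lay within their upper values of 18.2 and 18.9. Over the 3 scaling genes the Id2-null counts were 7.85 to 286 times the upper value, and the WT counts 0 to 28.6 times. Pou2af1 was above the M2 ratio in the Id2-null cultures on each of the 3 scales, and in proportion to Cd79a in the sorted cells. It was chosen with its rise in the Id2-null cultures known, so that excess is no test of where its RNA came from.

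**Figure D3:**
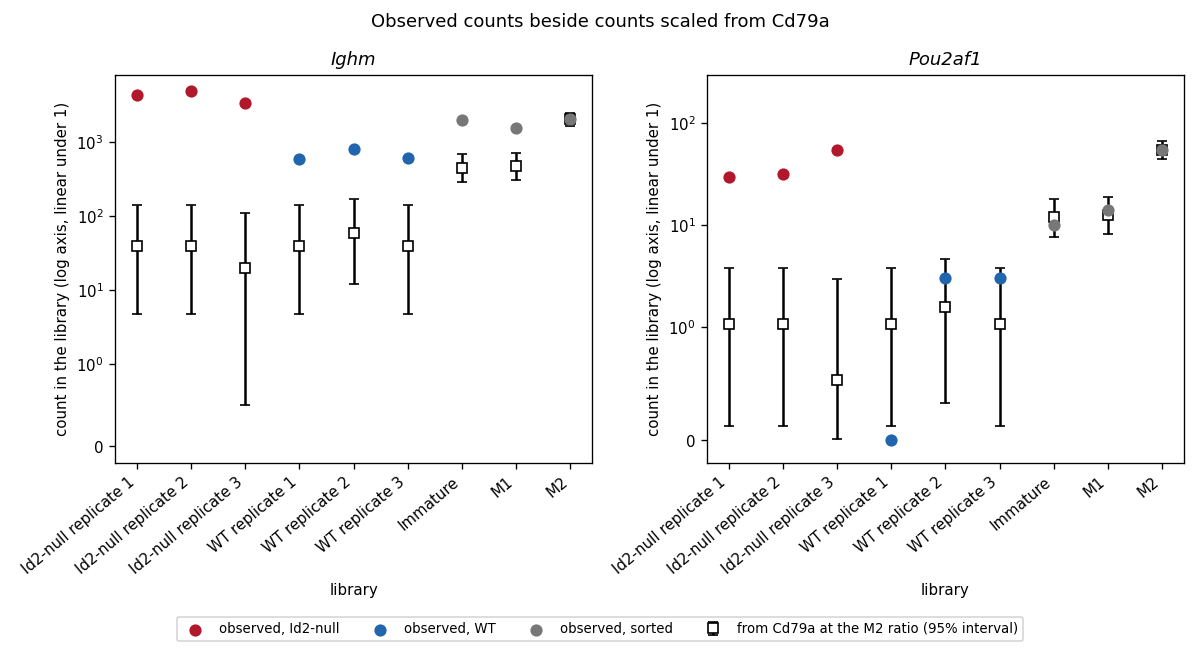
Counts of Ighm (left) and Pou2af1 (right) in each library (filled circles) beside the counts that Cd79a would give at the ratio of the M2 library (open squares, bars for the Poisson 95% interval of Cd79a). The axis is logarithmic above 1 and linear below, and M2 coincides by construction. Red Id2-null points stand above their bars for both genes, and blue WT points above theirs for Ighm.

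Jchain depended on the scale. At the M2 ratio of 5.17 counts per count of Cd79a its upper values were 37.4, 37.4 and 28.8 counts in the Id2-null libraries, where 41, 21 and 59 were observed, so replicate 2 lay below its value. With Igkc as the scale, at 0.342 counts of Jchain per count, the observed counts were 39.9, 8.49 and 16.8 times the upper values. In the Immature and M1 libraries Jchain kept to Igkc, with 71 and 94 counts observed beside 72.6 and 95.9 at the M2 ratio.

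The variable segments gave a second reading, chosen after their values were seen. The 120 Ighv rows together had 20, 14 and 9 counts in the Id2-null libraries, against 16, 22 and 21 counts in the WT libraries. Set against Ighm, that was 0.464, 0.283 and 0.266 Ighv counts per 100 Ighm counts in Id2-null libraries, against 2.72, 2.74 and 3.45 in WT libraries. The Immature library had 4.85, the M1 library 7.25 and the M2 library 23.3. The summed Ighv counts thus did not rise with Ighm, and the lower ratio in the Id2-null cultures largely follows from its divisor. Ighm was chosen with that difference known, so the ratio is no test of where its RNA came from. The 103 rows of Igkv, the kappa light chain segments, had 1, 2 and 0 counts in Id2-null libraries, against 2, 0 and 0 counts in WT libraries, and 230, 252 and 1590 counts across the Immature, M1 and M2 libraries. The 4 heavy chain J segments had 3, 6 and 6 counts in Id2-null libraries, against 0, 1 and 0 counts in WT libraries. V segments are near copies of each other, and the sources used here do not state how reads with several matches were counted.

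**Figure D4:**
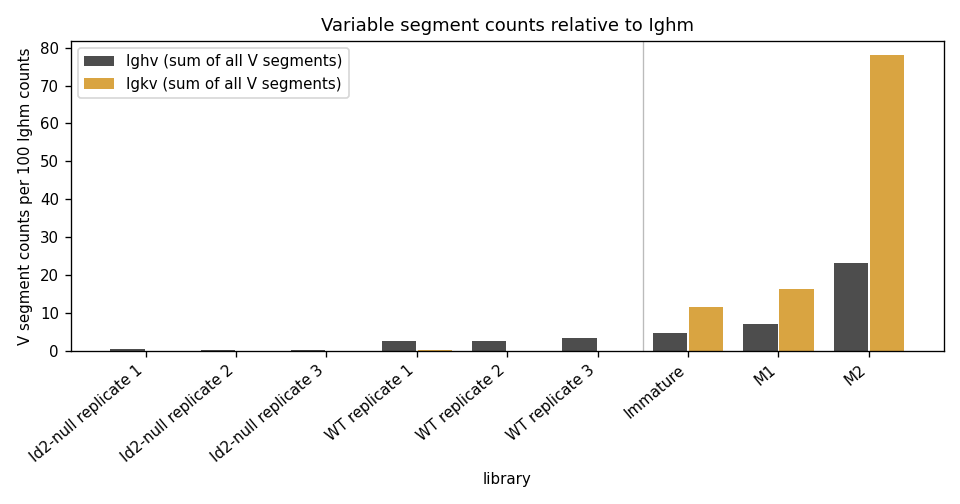
Counts summed over heavy chain (Ighv) and kappa light chain (Igkv) V segments for every 100 counts of Ighm, by library (linear axis from 0). Bars of the Id2-null libraries are at most 0.464, those of WT libraries at most 3.45, and in M2 they reach 23.3 for Ighv and 77.9 for Igkv.

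Genes of other cells that use some of these 6 genes were read next, from lists. Of 6 further heavy chain constant regions 0 could be tested. Igha, the constant region of IgA, had 15, 3 and 33 counts in Id2-null libraries, against 0, 1 and 7 counts in WT libraries, and Ighg2c had 0 in all 6 cultures and 147 in M2. Of 8 plasma cell genes, 3 were tested and 0 called by edgeR and by DESeq2 (0 at an unadjusted p under 0.05, and 1 lower, Prdm1, with the replicate block). The summed level of these 8 was 97.7 to 107 RPKM in Id2-null libraries and 89.5 to 139 RPKM in WT libraries. Xbp1, a factor of the secretory pathway, averaged 163 ± 15.4 CPM in Id2-null cells and 175 ± 31.0 CPM in WT cells. Mzb1 and Tnfrsf17, which mark antibody-secreting cells, had 0 counts in all 6 cultures. Sdc1, which marks them too, had at most 2. Irf4, also on this list, had 61, 78 and 345 counts in Id2-null libraries, against 64, 62 and 64 in WT libraries. In CPM these groups did not overlap, at 33.4 ± 32.0 in Id2-null cells and 12.9 ± 0.507 in WT cells (adjusted p = 0.468, edgeR). Prdm1 went the other way, at 29.8 ± 19.8 CPM in Id2-null cells and 82.1 ± 42.9 CPM in WT cells (adjusted p = 0.506, edgeR).

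Plasmacytoid dendritic cells, which depend on E proteins and can express Ighm and Jchain, were read through 12 markers. Siglech, Ccr9, Tlr9, Ly6d and Klk1 had 0 counts in all 6 cultures, and the summed level of the list was 209 to 233 RPKM in Id2-null libraries and 166 to 247 RPKM in WT libraries. Of 5 tested members 1 rose, Cox6a2, a muscle-type subunit of cytochrome oxidase, at 18.1 ± 7.37 CPM in Id2-null cells and 1.23 ± 0.449 CPM in WT cells (log2 fold change 3.87, adjusted p = 0.00235, edgeR). None fell, and with the replicate block Tcf4 was called lower besides. Of 12 T cell genes, 8 were tested and 0 called by edgeR (3 at an unadjusted p under 0.05). DESeq2 and limma voom called Cd3d higher, and the replicate block Cd3d higher and Cd3e lower. Cd3d and Cd3g were called higher without WT replicate 2. Trbc1 and Trbc2 were called higher, and Bcl11b lower, without replicate 3 of the Id2-null cells or of both genotypes. Cd3d averaged 115 CPM in Id2-null cells and 27.9 CPM in WT cells, and Cd3g 108 CPM and 36.4 CPM in the same order. For both genes the groups did not overlap. Cd3e, Trac and Bcl11b averaged lower in Id2-null cells. The summed level of the 12 T cell genes was 960 to 1652 RPKM in Id2-null libraries and 870 to 1127 RPKM in WT libraries. Of 9 myeloid genes 2 were tested and 0 called by edgeR (1 at an unadjusted p under 0.05, and Cd68 lower by DESeq2), with sums of 117 to 135 RPKM in Id2-null libraries and 105 to 163 RPKM in WT libraries. The part of T and myeloid cells in the values of the 6 genes was not tested.

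The V(D)J recombination list, with Rag1, Rag2, Dntt and the surrogate light chains, had no gene above 3 counts in any culture, Vpreb1 reaching 2 in 1 Id2-null library and Dntt 1 in each of 2.

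Of 6 octamer genes and octamer targets described in B cells, 2 were tested and 1, Cxcr5, rose. Cxcr5, the receptor that brings B cells to follicles, had 605, 371 and 656 counts in Id2-null libraries, against 0, 0 and 5 counts in WT libraries (adjusted p = 0.00145, edgeR). Spib, Crisp3 and Cd36 had at most 2 counts in any culture, and Pou2f3 had none. Among 14 tested genes of B cell receptor signalling, in which BANK1 takes part, 0 rose and 1 fell, with a median log2 fold change of -0.12. That gene was Malt1, a protease that relays the signal to NF-kappaB, at 140 ± 10.2 CPM in Id2-null cells and 242 ± 21.9 CPM in WT cells (log2 fold change -0.78, adjusted p = 0.0111, edgeR). Its call was lost without replicate 2 of the Id2-null cells (adjusted p = 0.0567, edgeR) and without replicate 1 or 2 of the WT cells (0.0686 and 0.0558). Syk, a kinase that relays receptor signals in B and NK cells, was called higher by DESeq2, with the replicate block, without an expression filter, with library sizes alone as scaling, and without Id2-null replicate 3 or replicate 3 of both genotypes. Fyn was called higher with the replicate block, and 3 of the 14 were at an unadjusted p under 0.05. Btk, which relays the signal in B cells, had 1, 0 and 0 counts in Id2-null libraries, against 0 in each WT library. Fcmr, the receptor for IgM, and the transport receptors Pigr and Fcamr had 0 counts in all 6 cultures. In the sorted libraries Fcmr had 16, 17 and 66 counts, in the order Immature, M1, M2.

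Among the E protein and Id genes, 2 of 5 tested rose and 1, the deleted Id2, fell. With the replicate block Tcf4, which encodes the E protein E2-2, was called lower besides. Id3, another Id protein, averaged 54.4 ± 9.69 CPM in Id2-null cells and 0.764 ± 0.842 CPM in WT cells (adjusted p = 0.00202, edgeR). The E protein gene Tcf12, whose product is HEB, averaged 245.5 ± 16.8 CPM in Id2-null cells and 166 ± 6.55 CPM in WT cells (adjusted p = 0.0265, edgeR). Its call was lost with any 1 library left out other than replicate 3 of the Id2-null cells (adjusted p from 0.0708 to 0.133, edgeR).

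Across the 9 libraries Ighm and Pou2af1 varied together (Pearson r = 0.89 of log2 CPM, n = 9, a description of libraries that share genotype, culture and sex). The value was 0.82 for Ighm with Aff3, 0.84 for Pou2af1 with Jchain, 0.51 for Ighm with Bank1 and -0.64 for Ighm with Pou2f2. Of 11021 other genes, those most like Ighm were Eif2s3x (r = 0.97), Slc43a2 (0.97), Xist (0.96), Polr3k (0.96) and Il16 (0.94). Those most like Pou2af1 were Actr5 (0.96), Slc29a3 (0.95), Kdm6a (0.95), Itgae (0.94) and Ssu72 (0.93). Eif2s3x, Xist and Kdm6a lie on the X chromosome. Eif2s3x averaged 86.0 ± 9.16 CPM in Id2-null cells and 55.5 ± 1.48 CPM in WT cells, and Xist 781 ± 112 CPM in Id2-null cells and 0.663 ± 0.475 CPM in WT cells (SD, n = 3 each). The 6 genes described here lie on chromosomes 1, 3, 5, 7, 9 and 12.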

How the data were processed

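RNA sequencing libraries of total RNA were made after purification on RNeasy columns and reverse transcription, per the labels' protocols. Each of the 9 libraries came as a deposited table of Entrez genes, their raw counts and the length of each gene, per the file headers. The length, in bases and of an other unit than the counts, was used for RPKM. The submitters' processing notes name Subread, featureCounts and limma and the build GRCm38 (mm10). The sources used here do not give the tools' settings, annotation or strand mode. The labels give the culture to samples 1 to 6, taken in listed order as the Id2-null and WT libraries, and this is a limit of every comparison. Symbols and coordinates came from RefSeq (GRCm38.p6) for 25275 of 27179 genes.

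Id2-null and WT libraries were compared with edgeR 4.0.16 in R 4.3.3 (filterByExpr, minimum count 10; TMM; robust quasi-likelihood test on genotype; Benjamini-Hochberg over 11022 genes; called at an adjusted p under 0.05). The script was tested on simulated data. CPM and RPKM used TMM over all 9 libraries. Alternatives used DESeq2 1.42.0, limma 3.58.1 voom, other scalings and filters, a replicate block and libraries left out. Same-numbered libraries of the genotypes deviated together (r = 0.35, 0.24 and 0.42), against r from -0.40 to 0.19 for unlike numbers. The numbers may thus pair the libraries, though the labels do not say so. The tests given are unpaired, and the fit blocked on the number is given where it changes a call or a count. No replicates agreed within sampling noise (chi-square per degree of freedom 5.09 to 28.6). The 6 genes and the 13 gene lists were chosen with earlier results of these data known. Genes named were the 6, 7 B cell genes (a further one is not reported here), Id2, the called members of each list (up to 4) or its 2 most abundant, and the 5 genes most correlated with Ighm and with Pou2af1. Further list members at or near 0 counts, the V segments, Ddx3y, Cd22, Ncr1 and Irf4 were named after their values were seen. The same holds for genes called only under an alternative.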

Additional observations from a re-analysis of the deposited data

How the results depend on the processing

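The log2 fold changes of the 6 genes kept their sign under each of 16 alternatives. Ighm ranged from 2.60 to 2.90, Aff3 from 2.30 to 2.67, Bank1 from 1.66 to 2.50 and Pou2f2 from -1.56 to -0.61. WT libraries at the floor left Pou2af1 between 2.69 (prior count 5) and 4.67 (without WT replicate 2), and Jchain between 3.12 (prior count 5) and 8.37 (without WT replicate 1), with 5.78 by limma voom and 5.69 without replicate 3 of both genotypes. Calls over all genes numbered 377, against 580 with DESeq2, 835 with the replicate block, 1065 without replicate 3 of both genotypes, and 121 (without WT replicate 1) to 662 (without Id2-null replicate 3) with 1 library left out. The cause was not tested. The count was 175 or 180 without replicate 1 or 2 of the Id2-null cells and 183 without replicate 2 of the WT cells. Of the B cell markers 0 were called, and 1, Ighd, was called with DESeq2 (adjusted p = 0.0409), with the replicate block (0.0142) and without replicate 3 of both genotypes (0.00345). The replicate block changed no call among the 6 genes. Leaving out 1 library gave 0 to 0 B cell markers and 4 to 6 of the 6 genes. The summed B cell markers differed by 1.87 RPKM (Id2-null minus WT), by -1.36 RPKM without immunoglobulin constant regions, by 2.81 RPKM without Cd72, by -1.09 RPKM without Cd72 and Ighd, by 5.80 RPKM without replicate 3 of both genotypes, and by -1.53 to 4.72 RPKM with 1 library left out (-0.977 RPKM without WT replicate 2), in no case beyond the spread. The sums without Cd72 were added after seeing the data. Library sizes alone as scaling moved 4 of 18 levels in sorted libraries beyond their counting interval, those of Ighm to 474, 343 and 453 CPM in Immature, M1 and M2 and that of Jchain in M2 to 120 CPM. Depth limits Pou2af1 and Jchain in the WT libraries and the B cell genes in all 6 cultures most.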
